A study of Mus musculus with 15 samples.

Results

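The genes described here are 9 transcriptional targets of the tumour suppressor p53, namely Mdm2, Ccng1, Eda2r, Perp, Trp53inp1, Sesn2, Zmat3, Phlda3 and Aen, among 17097 genes measured. They were chosen by name, with every probe set that the array annotation assigns to one of them alone, which gave 16 of 28898 probe sets with a single gene. Each of 15 mouse samples was measured on an Affymetrix HT_MG-430_PM array, with 3 samples in each of 5 groups. For Myc primary tumours, cerebellar cells of Cdkn2c-/-, Trp53-/- animals with an Atoh1-GFP reporter were infected with Myc and injected into the cortex of nude mice, which lack T cells. Myc secondary tumours came from cultured spheres of such tumours, transplanted again. The Shh tumours arose spontaneously in mice that lacked Cdkn2c and carried Trp53 Fl/Fl with Nestin-Cre, so that Trp53 was deleted only where Nestin-Cre had been active. The other 2 groups, GFP-positive and GFP-negative, hold cells sorted by the Atoh1-GFP reporter from cerebella of Cdkn2c-/-, Trp53-/- mice at postnatal day 6. The sample labels call these 6 sorted samples spontaneous tumour, whereas the design text calls them sorted cerebellar cells, which was followed. Loss of Cdkn2c and deletion of Trp53 were thus common to all 5 groups, and there was no group with intact Trp53 in its main cells. The nude host mice are not described as lacking Trp53, and the same holds for cells of the Shh mice outside the Nestin-Cre lineage. Nothing says that a group's 3 samples are separate animals, so p-values cover only their spread, which may be technical. Tumour cells were purified on a Percoll gradient.

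p53 is a transcription factor that is stabilised by DNA damage and oncogene activity and that binds pairs of short half-sites near its target genes. Its targets fall into a feedback arm (Mdm2, Ccng1), a cell death arm (Perp, Aen, Eda2r) and an arm that handles growth and stress (Sesn2, Phlda3, Trp53inp1, Zmat3). Many of them are also driven by other factors, among them p63, p73 and the stress factors of the ATF4 pathway. In granule neuron progenitors, loss of p53 removes the death response to DNA damage and speeds medulloblastoma formation in mice.

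The p53 half-site, a motif of 10 bases that reads as the same pattern on both strands, was searched in promoter windows of 300 bases (250 before and 50 after each gene start, RefSeq, GRCm38.p6). The table held such windows for 6 of the 9 genes. A half-site lay in windows of 3 of them, Mdm2, Ccng1 and Aen, and in 8.36% of all 32851 windows. No window of the 9 genes held 2 half-sites within 13 bases of each other, which 0.0731% of all windows did. Only exact matches inside these windows were searched, so sites elsewhere in a gene or with a mismatch would be missed. The matches are shown because they stand in the promoters of the feedback genes and of Aen, whose levels are given below; capitals mark the half-site, with 10 bases on each side.
Mdm2, chr10:117710925-117710954, minus strand: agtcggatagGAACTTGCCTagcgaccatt
Ccng1, chr11:40755452-40755481, minus strand: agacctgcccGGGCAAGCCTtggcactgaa
Aen, chr7:78895927-78895956, plus strand: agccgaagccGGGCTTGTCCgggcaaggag
Relative to the gene start, the Mdm2 match began at position -186 and the Ccng1 match at -185. Aen has 2 annotated starts, and its match began at -121 relative to one and at 10 relative to the other. A match of letters is no evidence of binding.

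All levels are log2 signals of robust multi-array averaging (RMA) as deposited. Background was taken as 4.77, the 95% quantile of 23 nonspecific control probe sets. A gene's leading probe set is its brightest over the 15 arrays. Differences are log2, with the standard error of 1 limma fit over the 5 groups, and a difference was called when its Benjamini-Hochberg adjusted p over all 28898 probe sets lay below 0.05. Array medians lay between 4.64 and 4.89. Array GFP-negative 3 had the narrowest interquartile range, 2.99, against 3.33 to 3.78 on the other arrays, and Myc secondary 1 had the lowest mean correlation with its group, 0.959 across probe sets. In Myc primary 3 the summed signal of 8 oligodendrocyte markers was 12.60, against 9.31 and 7.79 in Myc primary 1 and 2. The numbers in the sample titles form 2 runs, one with the Myc primary, Shh and first 2 GFP-negative arrays, while all Myc secondary and GFP-positive arrays share the other with GFP-negative 3. What the numbers stand for is not stated. Myc primary or Shh tumours against GFP-positive cells, and Myc secondary against Myc primary or Shh tumours, differ in run as well as group, and these cannot be told apart.

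No probe set was listed with Trp53 alone, so its deletion could not be checked and Trp53 was not analysed here. Cdkn2c, the gene of the p18 inhibitor of cyclin-dependent kinases and deleted in all groups, read below background on all 15 arrays, between 3.31 and 4.12. The position of its probe set relative to the deletion is not given. Atoh1, the factor that specifies granule neuron progenitors, read 8.97, 9.29 and 8.51 in GFP-positive cells and 3.75, 3.96 and 4.55 in GFP-negative cells. Gli1, the readout of Shh signalling, read 9.05 to 9.58 in Shh tumours and 3.45 to 4.33 in both Myc tumour groups. GFP-negative cells carried 9 or 10 of 10 microglia markers above background, against 0 to 2 in GFP-positive cells, and were thus a mixture. In such bulk samples, fewer cells of a type and less RNA per cell cannot be told apart.

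Of the 9 genes, 6 differed among the 5 groups by the moderated F test, namely Eda2r, Perp, Trp53inp1, Zmat3, Phlda3 and Aen, against 47.7% of all genes. Mdm2, Ccng1 and Sesn2 did not pass on their leading probe sets. Over all 16 probe sets, 9 passed. Their highest group means lay in different groups: Myc primary tumours for Zmat3, Phlda3 and Aen, Myc secondary tumours for Perp, Shh tumours for Eda2r and GFP-positive cells for Trp53inp1, as the plot by array shows.

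**Figure D1:**
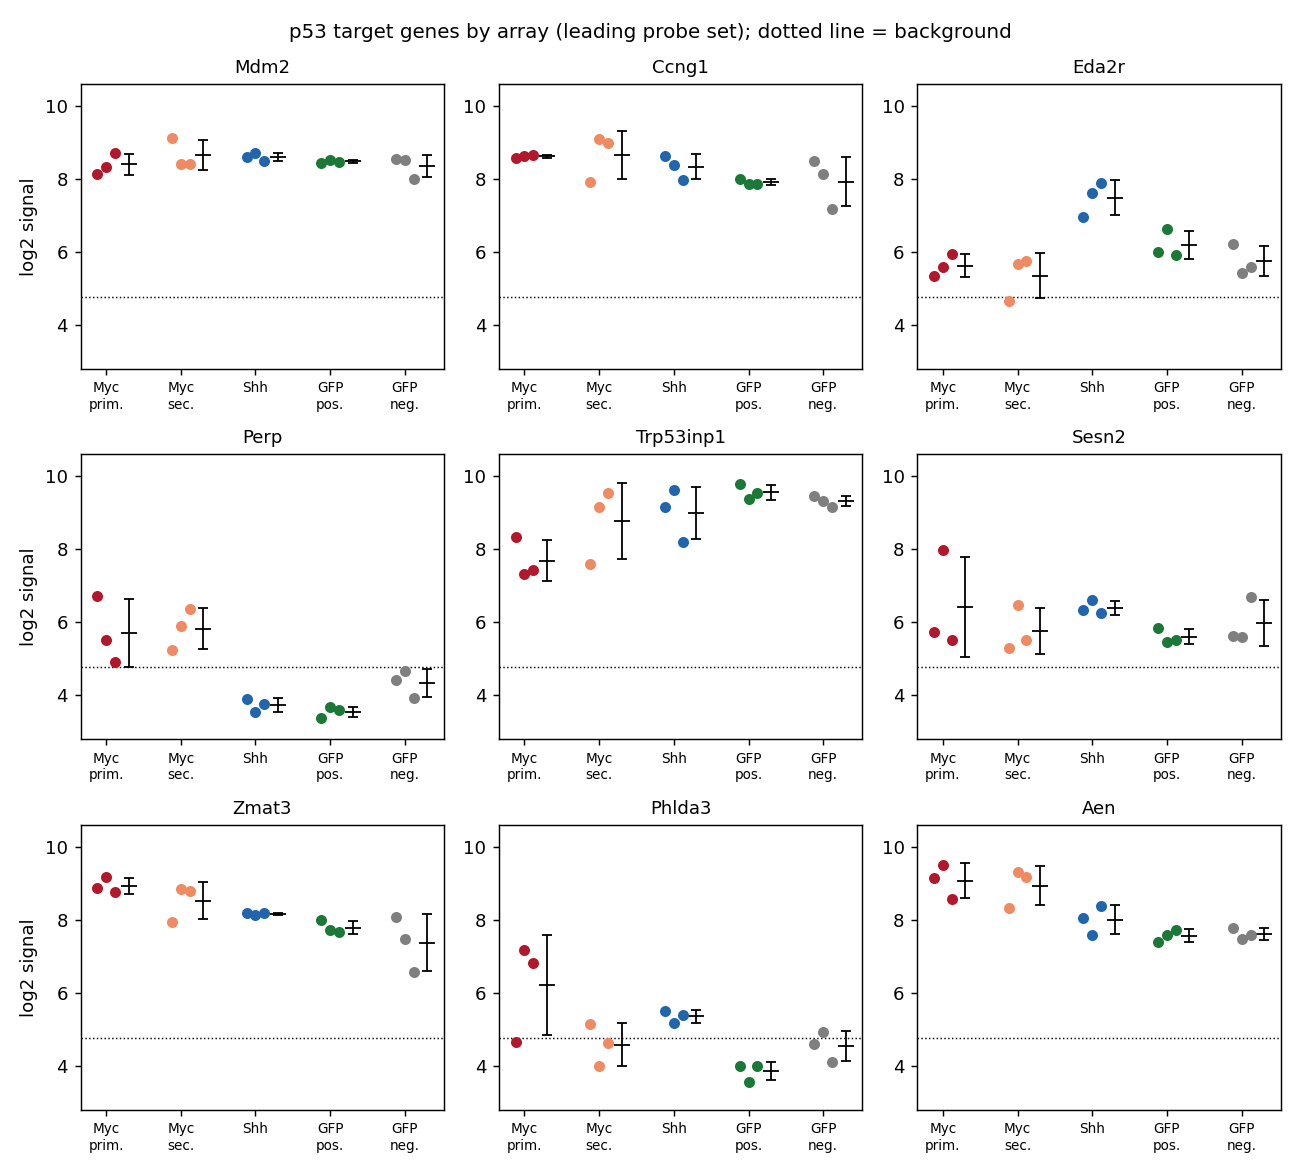
Log2 signal of the leading probe set of each of the 9 p53 targets on the 15 arrays (points) in Myc primary, Myc secondary and Shh tumours and in GFP-positive and GFP-negative sorted cells, with the mean and SD of 3 arrays (black) and the background level of 4.77 (dotted). Mdm2 lies between 8.0 and 9.12 on all arrays, Eda2r is highest in Shh tumours, and Perp is above background only in the 6 Myc tumour arrays.

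Mdm2 encodes the ubiquitin ligase that marks p53 for degradation and is itself a p53 target, which closes the feedback loop. It read 8.13, 8.33 and 8.71 in Myc primary, 9.12, 8.40 and 8.40 in Myc secondary and 8.60, 8.71 and 8.48 in Shh tumours. In sorted cells it read 8.44, 8.51 and 8.46 (GFP-positive) and 8.55, 8.51 and 8.0 (GFP-negative). The groups overlapped throughout, and the 5 group means spanned only 0.29 (F test, adjusted p = 0.685 in limma). The mean of the tumour groups minus that of the sorted groups was 0.13 ± 0.14 (standard error), with a 95% confidence interval of -0.17 to 0.43 that bounds a difference rather than showing equality. No neighbours in the order of its 5 group means differed by the test. The second probe set of Mdm2, at 5.34 to 8.33, had a wider range, with its lowest value in GFP-negative 3. In that probe set Myc secondary tumours lay 1.27 ± 0.41 above GFP-negative cells (adjusted p = 0.0274 in limma), a call that was lost without GFP-negative 3 (0.71) or without Myc secondary 1 (0.97).

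Ccng1 encodes cyclin G1, which recruits a protein phosphatase to Mdm2. Its leading probe set read 8.56, 8.63 and 8.65 in Myc primary, 7.90, 9.09 and 8.98 in Myc secondary and 8.63, 8.38 and 7.96 in Shh tumours, against 7.99, 7.85 and 7.87 in GFP-positive and 8.47, 8.12 and 7.17 in GFP-negative cells. The Myc primary values lay above all GFP-positive ones, while Myc secondary 1 lay among the sorted cells. The tumour groups were higher than the sorted groups by 0.62 ± 0.22 (adjusted p = 0.045 in limma). This call was lost when any of 12 single arrays was left out, with differences of 0.43 to 0.76 over the 15 such fits, and with cyclic loess (0.44). The 2 dimmer probe sets gave differences of 1.08 ± 0.21 (adjusted p = 0.00173) and 1.09 ± 0.23 (adjusted p = 0.00269) and kept their calls in every alternative run. The dimmest was above background on 1 of 3 arrays in each sorted group, with group means below it, so the size rests partly on dim signals. All 3 probe sets therefore ran higher in tumours. No neighbours in the order of the Ccng1 group means, Myc secondary highest and GFP-positive lowest, differed by the test.

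Eda2r encodes a receptor of the tumour necrosis factor family that binds ectodysplasin A2. It was the only one of the 9 whose highest group mean was that of the Shh tumours and passed the test against the next group in order. It read 6.96, 7.61 and 7.87 in Shh tumours, above every other array of the series. Myc primary tumours read 5.34, 5.59 and 5.94, and Myc secondary tumours 4.65, 5.66 and 5.74. GFP-positive cells read 6.01, 6.62 and 5.92, and GFP-negative cells 6.21, 5.43 and 5.58. Eda2r was higher in Shh tumours than in GFP-positive cells by 1.30 ± 0.34 (adjusted p = 0.0307 in limma). It was lower in Myc primary than in Shh tumours (-1.86 ± 0.34, adjusted p = 0.00266), and lower in Myc secondary than in Shh tumours (-2.13 ± 0.34, adjusted p = 0.000666), calls that held without any single array. The call against GFP-positive cells was lost without Shh 2 (1.23), Shh 3 (1.10), GFP-positive 1 (1.21) or GFP-positive 3 (1.17). The 3 lower neighbours in the order did not differ, so Eda2r separated Shh tumours from the 4 other groups and did not order those.

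Perp encodes a tetraspan protein of the plasma membrane and of desmosomes that takes part in p53-dependent death. It read 6.72, 5.51 and 4.9 in Myc primary and 5.23, 5.89 and 6.36 in Myc secondary tumours. The Shh tumours read 3.91, 3.55 and 3.75, GFP-positive cells 3.40, 3.67 and 3.59, and GFP-negative cells 4.41, 4.68 and 3.92, all below background. All 6 Myc tumour arrays thus lay above background and above the 9 other arrays, although Myc primary 3 did so by little. Since the dim groups have only a bound, Perp was at least 1.92-fold higher in Myc primary than in Shh tumours (measured difference 1.98 ± 0.39, adjusted p = 0.0047 in limma). Against GFP-positive cells it was at least 1.92-fold higher in Myc primary (adjusted p = 0.00138) and at least 2.08-fold higher in Myc secondary tumours (adjusted p = 0.00089). Myc primary tumours also exceeded GFP-negative cells at least 1.92-fold (measured difference 1.37 ± 0.39, adjusted p = 0.0171), a call lost without Myc primary 1 (0.87) or GFP-negative 3 (1.17). The call was also lost with only the arrays of this pair (adjusted p = 0.0927 in limma). Neighbours in the order other than that pair did not differ.

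Other epithelial and choroid plexus markers were looked at beside Perp. Of 10 such markers, 0 to 2 were above background on the Myc primary arrays and 1 to 3 on the Myc secondary ones, against 0 on the Shh arrays. GFP-negative cells carried 2 to 5, with Perp below background. Krt8, an epithelial keratin, was below background on all 15 arrays. Dsp, which encodes the desmosomal protein desmoplakin, read 5.29, 5.43 and 4.59 in Myc primary and 7.15, 5.08 and 5.61 in Myc secondary tumours, against 3.89, 3.66 and 3.69 in Shh tumours. Ttr, the transthyretin of choroid plexus, read 9.55, 9.53 and 3.79 in Myc primary and 11.61, 4.14 and 7.98 in Myc secondary tumours, so that Perp was above background also on the 2 tumour arrays without Ttr. The summed level of the list was 7.37 to 9.83 in Myc primary and 7.32 to 11.74 in Myc secondary tumours, against 7.03 to 7.09 in Shh tumours. The part of these cells in the Perp difference was not tested.

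Aen encodes apoptosis enhancing nuclease, an exonuclease that p53 induces after DNA damage. It read 9.14, 9.50 and 8.56 in Myc primary, 8.32, 9.30 and 9.17 in Myc secondary and 8.05, 7.58 and 8.38 in Shh tumours, against 7.38, 7.58 and 7.72 in GFP-positive and 7.78, 7.48 and 7.57 in GFP-negative cells. All 6 Myc tumour arrays lay above all 6 sorted arrays, while the Shh arrays overlapped the sorted ones. Aen was higher in Myc primary tumours than in GFP-positive cells by 1.51 ± 0.29 (adjusted p = 0.00202 in limma) and in Myc secondary tumours by 1.37 ± 0.29 (adjusted p = 0.00364). Its second probe set gave 1.61 ± 0.32 and 1.79 ± 0.32 for the same pairs. On that probe set all 9 tumour arrays, at 6.07 to 7.99, lay above all 6 sorted arrays, at 5.09 to 5.91, a separation found for 5.13% of all probe sets. The dimmest of its 3 probe sets stayed below background on all arrays and differed in no comparison.

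Against Shh tumours Aen was higher in Myc primary tumours by 1.06 ± 0.29 (adjusted p = 0.0259 in limma). This call was lost without Shh 1 (1.09) or 2 (0.85) and without Myc primary 1 (1.03) or 2 (0.85), on only the 6 arrays (adjusted p = 0.0739) and with the mean of its probe sets (0.69). The second Aen probe set gave 0.90 ± 0.32 for the same pair, which did not pass (adjusted p = 0.0807 in limma). In the order of group means the step between Myc secondary and Shh tumours (0.92, adjusted p = 0.0363) was the only one to pass, and it was lost without Shh 1 (0.95), Shh 2 (0.71), GFP-positive 2 (0.92), Myc secondary 2 (0.74) or Myc secondary 3 (0.8). Its calls in both Myc tumour groups against GFP-positive cells, by contrast, were kept in every alternative run.

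Trp53inp1 encodes a stress-induced nuclear protein that helps p53 phosphorylation and takes part in autophagy. It moved opposite to Aen in Myc primary tumours. In Myc secondary tumours its difference from GFP-positive cells did not pass (-0.80 ± 0.46, adjusted p = 0.272 in limma). It read 8.33, 7.31 and 7.42 in Myc primary, 7.58, 9.16 and 9.54 in Myc secondary and 9.15, 9.62 and 8.21 in Shh tumours. Sorted cells read 9.77, 9.37 and 9.52 (GFP-positive) and 9.45, 9.33 and 9.16 (GFP-negative). The Myc primary values lay below all sorted values, and Myc secondary 1 lay with the Myc primary arrays. Trp53inp1 was lower in Myc primary tumours than in GFP-positive cells (-1.87 ± 0.46, adjusted p = 0.0101 in limma), and this held in every alternative run. In Shh tumours the difference from GFP-positive cells did not pass (-0.57 ± 0.46, adjusted p = 0.559). The mean of the tumour groups was lower than that of the sorted groups (-0.96 ± 0.30, adjusted p = 0.0268). This pooled call was lost without GFP-negative 1 (-0.92), GFP-negative 2 (-0.95), GFP-positive 1 (-0.90) or GFP-positive 3 (-0.96). The F test (adjusted p = 0.0317) lost its call without any one of 7 arrays, Myc primary 2 and 3, GFP-negative 1 and 2 and the 3 GFP-positive arrays. Its second probe set was below background on all 15 arrays, and no neighbours in the order of group means differed by the test.

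Zmat3 encodes a zinc finger protein that binds RNA and acts in splicing and mRNA stability downstream of p53. It read 8.88, 9.18 and 8.75 in Myc primary, 7.93, 8.83 and 8.78 in Myc secondary and 8.19, 8.13 and 8.17 in Shh tumours. GFP-positive cells read 7.98, 7.71 and 7.65, and GFP-negative cells 8.09, 7.47 and 6.56, the last in the array of narrow range. Myc primary tumours lay above all Shh and sorted arrays. The mean of the tumour groups was higher than that of the sorted groups by 0.96 ± 0.21 (adjusted p = 0.00334 in limma), which held in every alternative run. Against GFP-positive cells alone, Myc secondary (0.73 ± 0.32, adjusted p = 0.133) and Shh tumours (0.38 ± 0.32, adjusted p = 0.575) did not pass. Myc primary tumours were higher than GFP-positive cells by 1.15 ± 0.32 (adjusted p = 0.0202), a call lost without Myc primary 2 (1.03), GFP-positive 2 (1.12) or GFP-positive 3 (1.09). Against Shh tumours the Myc primary difference of 0.77 ± 0.32 did not pass (adjusted p = 0.143), but passed on only the 6 arrays (adjusted p = 0.021), without GFP-negative 3 (adjusted p = 0.0429) and with cyclic loess (0.82, adjusted p = 0.0466). Each step in the order, Myc primary, Myc secondary, Shh, GFP-positive and GFP-negative, was too small to pass.

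Phlda3 encodes a small pleckstrin homology protein that keeps the kinase Akt away from the membrane. Its values varied widely within the Myc primary tumours, with 4.66, 7.16 and 6.82. Myc secondary tumours read 5.15, 3.99 and 4.62 and Shh tumours 5.51, 5.17 and 5.39, against 4.0, 3.57 and 4.0 in GFP-positive and 4.61, 4.93 and 4.11 in GFP-negative cells. Only Shh tumours were above background on all 3 arrays, and Myc primary 1 lay below it. Phlda3 was at least 2.72-fold higher in Myc primary tumours than in GFP-positive cells, which had only a bound (measured difference 2.36 ± 0.51, adjusted p = 0.00474 in limma). The difference between tumour groups and sorted groups, 1.18 ± 0.33 (adjusted p = 0.0156), was lost without the 3 arrays that stood apart (0.88, adjusted p = 0.0862).

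Phlda3 in Myc secondary minus Myc primary tumours was -1.63 ± 0.51 and did not pass (adjusted p = 0.153 in limma). Without Myc primary 1, the low array of its group, the difference was -2.41 and passed (adjusted p = 0.00309), and Myc primary tumours then also exceeded Shh tumours by 1.63 (adjusted p = 0.00646). The F test lost its call without Myc primary 3 (adjusted p = 0.055). In Myc primary 2 and 3, where Phlda3 was high, fibroblast and meningeal markers summed to 9.31 and 11.71, against 8.49 in Myc primary 1; endothelial and mural markers summed to 9.32 and 11.22, against 9.29. GFP-negative cells had fibroblast sums of 11.19 to 12.43 with Phlda3 at 4.93 or lower. The part of these cells was not tested. No neighbours in the order of the Phlda3 means differed by the test.

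Sesn2 encodes sestrin 2, a stress protein that restrains the growth kinase complex mTORC1 and is induced by ATF4 as well as p53. It read 5.74, 7.99 and 5.51 in Myc primary, 5.29, 6.48 and 5.53 in Myc secondary and 6.32, 6.61 and 6.24 in Shh tumours, against 5.84, 5.45 and 5.51 in GFP-positive and 5.62, 5.61 and 6.69 in GFP-negative cells. Myc primary 2 alone stood out, on the second probe set as well (6.02, against 4.26 and 4.43 in the other Myc primary arrays). No difference passed in any of the 10 pairs of groups, and tumours minus sorted cells gave 0.40 ± 0.35 with a 95% confidence interval of -0.36 to 1.17. The Shh arrays lay above all GFP-positive ones, and on only those 6 arrays the difference of 0.79 passed (adjusted p = 0.0135 in limma).

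Counted over the 9 leading probe sets, 5 were higher and 1 lower in tumours than in sorted cells, against 33.6% of all genes called in either direction (18.6% higher and 15% lower). The higher ones were Ccng1, Perp, Zmat3, Phlda3 and Aen, and the lower one was Trp53inp1. The median difference of the 9 was 0.62, against 0.02 over all genes. For 0 of the 9 leading probe sets were all tumour arrays on one side of all sorted arrays. The share over all 28898 probe sets, which include the dimmer ones of a gene, was 5.13%. For Perp the Myc tumours lay above the sorted groups, while the Shh tumours were below background.

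**Figure D2:**
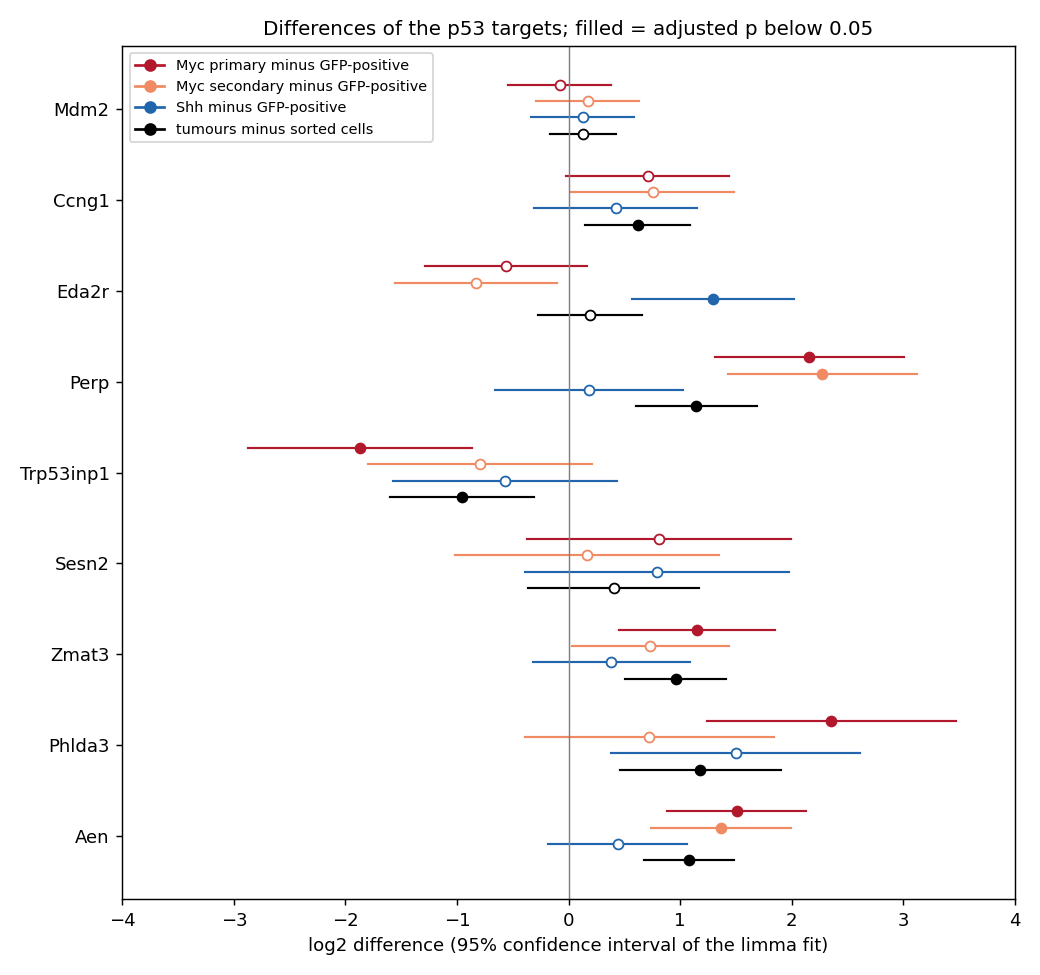
Log2 difference with its 95% confidence interval for each p53 target in Myc primary, Myc secondary and Shh tumours minus GFP-positive cells, and in the 3 tumour groups minus the 2 sorted groups (black). Filled points had an adjusted p below 0.05; Eda2r is filled only for Shh tumours (1.30), and Mdm2 and Sesn2 have no filled point.

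Against GFP-positive cells, which served all 3 tumour groups as the same control arrays, 5 of the 9 genes changed in Myc primary tumours (24.6% of all genes did). Perp, Zmat3, Phlda3 and Aen were higher and Trp53inp1 was lower, with a median over the 9 of 0.81 against 0.06 over all genes. In Myc secondary tumours 2 of 9 changed, Perp and Aen, both higher (25% of all genes, median 0.73 against 0.05). In Shh tumours 1 of 9 changed, Eda2r (8.01% of all genes, median 0.42 against -0.01). With only the arrays compared, Phlda3 (adjusted p = 0.00168 in limma) and Sesn2 joined Eda2r in Shh tumours, and Phlda3 did so without Myc primary 1 as well (adjusted p = 0.00712). Since GFP-positive cells were below background for Phlda3, it was at least 1.5-fold higher in Shh tumours. Without Myc secondary 1, Ccng1 (1.13, adjusted p = 0.0159) and Zmat3 (1.03, adjusted p = 0.0363) joined in Myc secondary tumours, and Zmat3 did so without GFP-negative 3 too (0.73, adjusted p = 0.0379).

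Between tumour models, 3 of 9 genes changed in Myc primary against Shh tumours, where 15.5% of all genes did: Perp and Aen were higher and Eda2r was lower. The median of the 9 was 0.29, against 0.08 over all genes. These groups lie in the same run of title numbers. Without Shh 3, and likewise without Myc secondary 1, Trp53inp1 also passed (-1.69, adjusted p = 0.0383, and -1.30, adjusted p = 0.0186, in limma). Without the 3 arrays that stood apart 5 of 9 passed, with Mdm2 (-0.37) and Zmat3 (0.86) added. Myc secondary against Shh tumours gave 3 of 9 (22.7% of all genes), again Perp and Aen higher and Eda2r lower; both comparisons share the Shh arrays.

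In Myc secondary against Myc primary tumours 0 of 9 genes changed in limma, where 1.16% of all genes did; 2 of the 9 had an unadjusted p below 0.05. Myc secondary 1 had the lowest value of its group for 7 of the 9 genes. Likewise 0 of 9 differed between GFP-positive and GFP-negative cells in limma, where 26.3% of all genes did and 0 of the 9 had an unadjusted p below 0.05. On only those 6 arrays Perp passed (adjusted p = 0.0386 in limma), with both groups below background. Against GFP-negative cells, 4 genes were higher and 1 lower in Myc primary tumours (33.2% of all genes called), 3 were higher in Myc secondary tumours (37.2%) and 1 was higher in Shh tumours (28.4%). Single arrays ended some of these calls. For Phlda3 in Myc primary tumours they were Myc primary 2 (1.19 without it) and 3 (1.36) and GFP-negative 1 (1.69) and 3 (1.45). For Trp53inp1 in Myc primary tumours they were Myc primary 2 (-1.44) and 3 (-1.49), and for Zmat3 in Myc secondary tumours Myc secondary 2 (0.98) and 3 (1.01). With only the arrays compared, Phlda3 (adjusted p = 0.133 in limma) and Perp (adjusted p = 0.0927) lost their calls in Myc primary tumours. So did Zmat3 in Myc secondary tumours (adjusted p = 0.113).

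Of the 9 genes, 5 were read by more than 1 probe set. Probe sets above background ran the same way for Ccng1 and Aen in tumours against sorted cells, where 3 of 3 and 2 of 3 were called. The dimmest Ccng1 probe set was called against GFP-positive cells, where the leading one was not. It was higher in Myc primary tumours by 1.25 ± 0.35 (adjusted p = 0.0213 in limma), a call lost without Myc primary 2 (1.13) or 3 (1.10) or GFP-positive 1 (1.22) or 2 (1.11). In Myc secondary tumours it was higher by 1.43 ± 0.35 (adjusted p = 0.0101), which held in every alternative run. Of the 3 GFP-positive arrays 1 was above background on it. The second probe sets of Mdm2 and Sesn2 added no call to the comparisons of the tumour groups with GFP-positive cells.

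**Figure D3:**
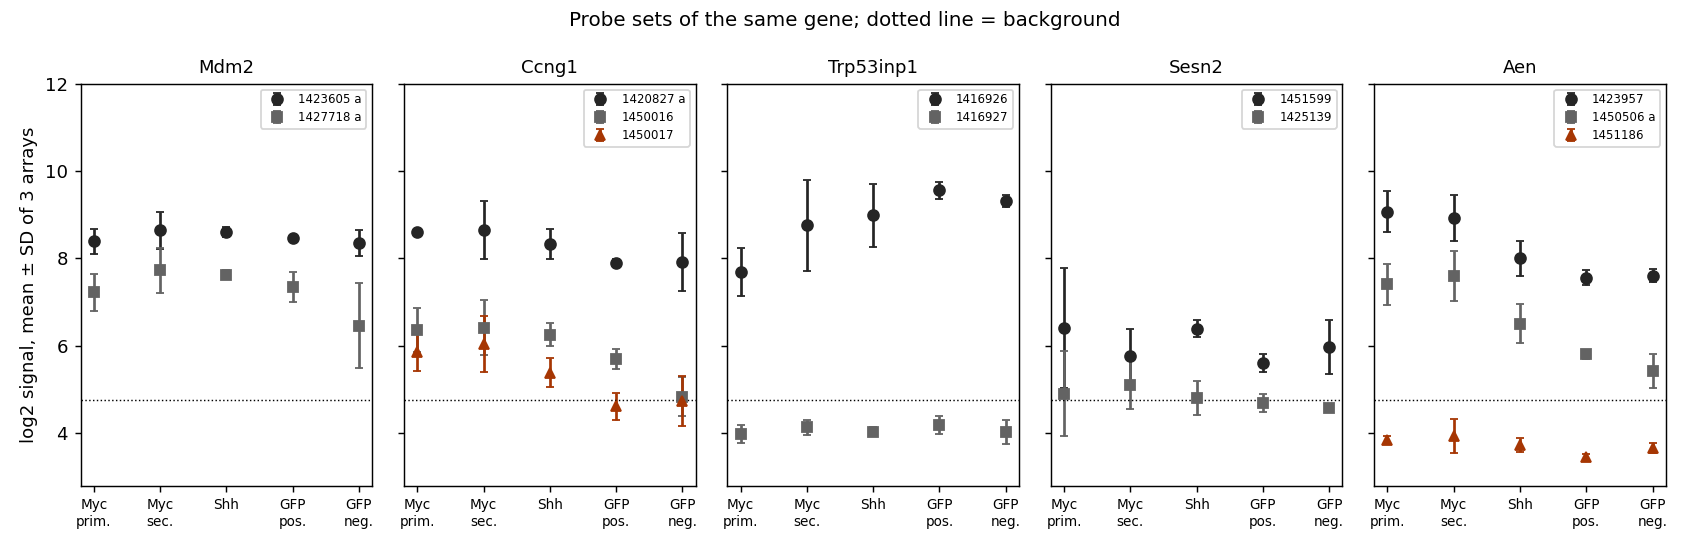
Mean and SD of 3 arrays, in log2 signal, of every probe set of the 5 genes with more than 1 probe set, over the 5 groups; the dotted line is the background of 4.77. The Ccng1 and upper Aen probe sets step down between tumours and sorted cells, and the dimmer Trp53inp1 and the dimmest Aen probe sets stay below background.

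Other genes of the p53 pathway were read from 3 lists of 57 genes, of which 50 were measured. By the F test 34 of the 50 (68%) differed among the groups, against 47.7% of all genes. In tumours against sorted cells 14 were higher and 13 lower, which is 54% called against 33.6% of all genes (18.6% higher and 15% lower), with a median of 0.04 against 0.02 over all genes. Of 22 arrest and repair targets 7 were higher and 6 lower (59.1% called), and of 15 family members and regulators 3 were higher and 6 lower (60% called). Of 13 cell death targets 4 were higher and 1 lower (38.5% called), near the share over all genes. Cdkn1a, the gene of the cell cycle inhibitor p21 and a classic p53 target, read 7.60, 9.48 and 6.96 in Myc primary, 7.01, 7.74 and 7.27 in Myc secondary and 8.18, 8.43 and 7.68 in Shh tumours. It read 6.79, 6.98 and 7.25 in GFP-positive and 5.97, 8.52 and 7.51 in GFP-negative cells, with no call in any of the 7 comparisons (F test, adjusted p = 0.485 in limma). Bbc3, which encodes the death protein Puma, was higher in the mean of the tumour groups than in that of the sorted groups by 0.87 ± 0.23 (adjusted p = 0.0109). Against GFP-positive cells alone it passed in no tumour group (adjusted p of 0.097 to 0.561 in limma). Bax was not analysed here, since it had no probe set of its own.

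Among the named pathway genes, Cdkn2a differed most between tumours and sorted cells. It encodes p16Ink4a and p19Arf, of which Arf restrains Mdm2, and the probe set does not say which transcript it reads. It read 7.36, 4.34 and 7.92 in Myc primary, 9.18, 9.83 and 8.92 in Myc secondary and 9.02, 7.69 and 7.17 in Shh tumours. GFP-positive cells read 3.54, 4.18 and 3.99 and GFP-negative cells 3.19, 3.41 and 3.99, all below background, as was Myc primary 2. Cdkn2a was at least 9.0-fold higher in tumours than in sorted cells (measured difference 4.22 ± 0.48, adjusted p = 2.68e-05 in limma). Against GFP-positive cells it was at least 23.3-fold higher in Myc secondary and at least 9.14-fold higher in Shh tumours. The Myc primary call (adjusted p = 0.0197) was lost without Myc primary 1 (2.23) or 3 (1.95) or GFP-positive 1 (2.46) or 3 (2.69).

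Mdm4, the partner of Mdm2 in restraining p53, was lower in tumours than in sorted cells (-0.56 ± 0.13, adjusted p = 0.00463 in limma), and so was Ppm1d, a phosphatase of p53 and its kinases (-0.52 ± 0.11, adjusted p = 0.00218). Both calls were lost with the mean of the gene's probe sets (-0.14 for Mdm4 and -0.19 for Ppm1d). Mdm4 in Shh tumours did not differ from GFP-positive cells by the test (-0.17, adjusted p = 0.718 in limma). The Ppm1d mean in Shh tumours (8.60) lay between those of GFP-negative (8.40) and GFP-positive cells (9.25). Chek1, the checkpoint kinase, was higher in tumours than in sorted cells (0.89 ± 0.15, adjusted p = 0.000485). Its difference between Shh tumours and GFP-positive cells did not pass (0.22, adjusted p = 0.657). Ddb2, a damage sensor of nucleotide excision repair, read 5.13, 5.76 and 5.16 in Myc primary and 4.21, 4.22 and 3.96 in Myc secondary tumours, against 6.77, 6.90 and 6.20 in Shh tumours. In Myc secondary tumours it was below background and at least 2.77-fold lower than in GFP-positive cells (adjusted p = 5.94e-05).

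**Figure D4:**
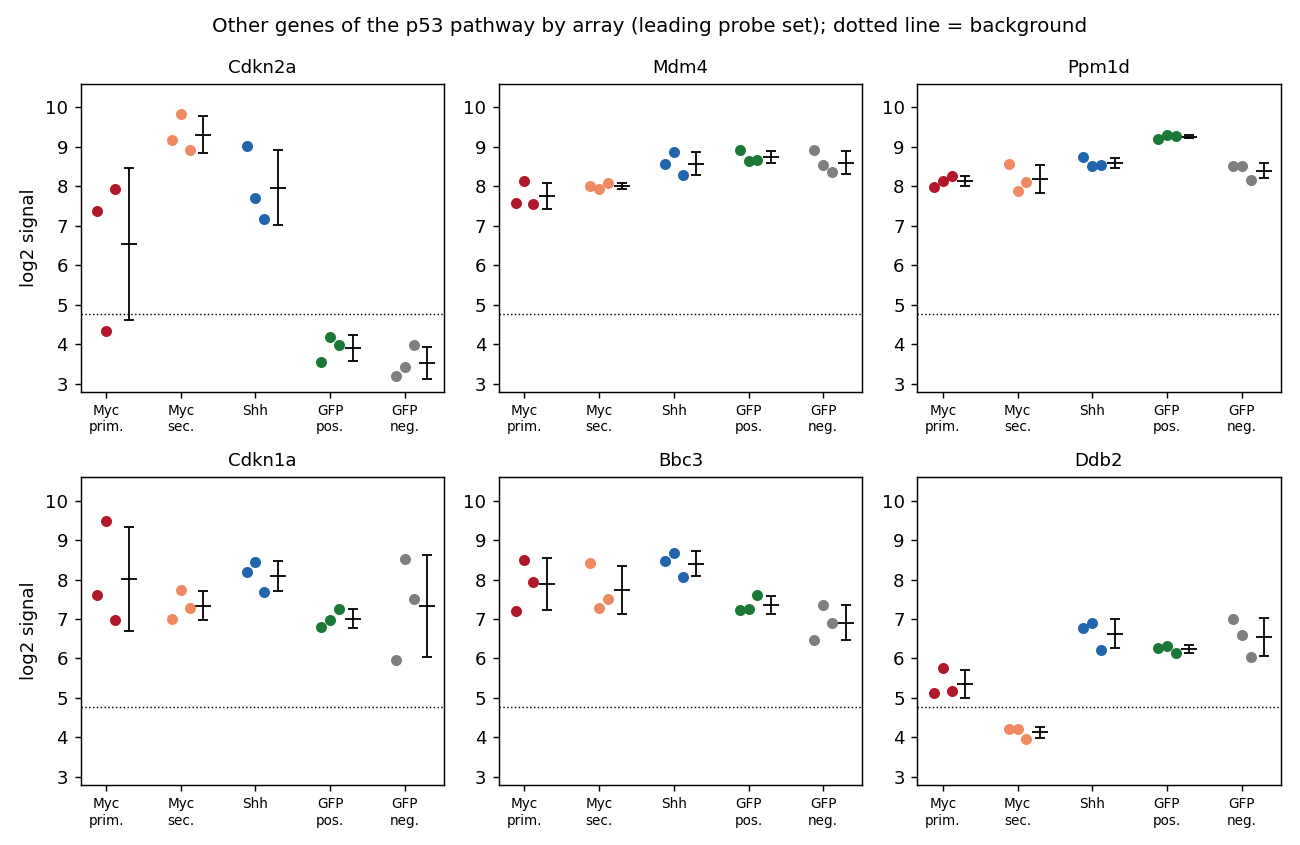
Log2 signal on the 15 arrays (points), with the mean and SD of 3 arrays (black), of 6 other p53 pathway genes; the dotted line is the background of 4.77. Cdkn2a is above background on 8 of 9 tumour arrays and on 0 of 6 sorted arrays. Cdkn1a lies at 7.68 to 8.43 in Shh tumours, above the 6.79 to 7.25 of GFP-positive cells, and overlaps between all other pairs of groups.

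Of the 5 remaining named genes, 4 passed in the mean of the tumour groups against that of the sorted groups. Siva1 (0.88 ± 0.11, adjusted p = 6.21e-05 in limma), Tigar (0.76 ± 0.12, adjusted p = 0.000443) and Sulf2 (1.44 ± 0.31, adjusted p = 0.00293) were higher. Trp53i11 was lower (-0.87 ± 0.19, adjusted p = 0.00373). Not every group followed these pooled differences. Sulf2 was lower in Shh tumours than in GFP-negative cells (-3.29, adjusted p = 0.000284). Trp53i11 was higher in Shh tumours than in GFP-negative cells (1.06, adjusted p = 0.0188). That call was lost with cyclic loess, on only those arrays and without Shh 2, Shh 3 or GFP-negative 3. Against GFP-positive cells alone, no tumour group passed for Siva1 (adjusted p of 0.126 to 0.818 in limma) or Tigar (0.103 to 0.266). Both had their lowest group mean in GFP-negative cells (9.07 and 5.95). The named genes also differed between other groups. Sulf2, an extracellular sulfatase, was lower in GFP-positive than in GFP-negative cells by 5.50 on the log2 scale (-5.50 ± 0.47, adjusted p = 4.22e-06 in limma). Rnf144b, a ubiquitin ligase, was at least 5.46-fold lower in GFP-positive than in GFP-negative cells. Tigar, which diverts sugar away from glycolysis, was higher in GFP-positive cells by 1.34 ± 0.19 (adjusted p = 0.000225), as was Siva1, a death adaptor, by 1.28 ± 0.17 (adjusted p = 0.000144). Trp53i11 was lower in Myc primary than in Shh tumours (-1.94 ± 0.30, adjusted p = 0.000903).

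The 3 genes with the widest range of group means were Phlda3 (2.36), Perp (2.28) and Eda2r (2.13). For each, the nearest profiles among all other genes were found by the root mean square difference over the 15 arrays after each profile was centred on its own mean. Nearest to Phlda3 were C730049O14Rik (0.48), Met, the receptor of hepatocyte growth factor (0.57), and Rerg (0.57). Met read 7.30 and 6.40 in Myc primary 2 and 3 and at most 4.28 on the other 13 arrays, so this likeness rests on those arrays. Nearest to Perp were Rbfa (0.41), a mitochondrial ribosome factor, Nfs1 (0.43), a cysteine desulfurase, and Ldha (0.43), lactate dehydrogenase. Nearest to Eda2r were Col9a2 (0.38), a collagen chain, Dennd2a (0.38) and Tle1 (0.39), a corepressor.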

How the data were processed

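The values are the authors' deposited log2 signals per probe set from RMA, made with Partek 6.5 per the submitters' processing notes; settings were not given in the sources used here. They were used without further scaling. Of 45141 probe sets, 104 controls, 15588 without a listed gene and 551 with several genes were left out. Current symbols came from GRCm38.p6 for 28689 of 28898 probe sets. limma 3.58.1 in R 4.3.3 (lmFit, eBayes) was fitted to all 15 arrays with group as the only term (10 residual and 2.61 prior degrees of freedom), two-sided; the fit was checked on simulated data. The number of arrays limits the precision. The genes and lists were chosen with earlier results of these data known, so no count over them is independent evidence. Named pathway genes were Cdkn1a, Bbc3, Bax, Trp53, Mdm4, Cdkn2a, Cdkn2c and up to 3 of each list with the smallest F test p, plus the 3 nearest profiles of the 3 widest-ranging genes; markers and arrays were named after their values were seen. "At least" folds set the mean of a group dim on all its arrays to background and keep the brighter group as measured. Alternatives were 1 or the mean probe set per gene, a filter on dim probe sets, cyclic loess, median centring, only the arrays compared, an intensity trend with robust variance (statmod 1.5.0), and leaving out each array. Figures used matplotlib 3.10.9.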

Additional observations from a re-analysis of the deposited data

How the results depend on the processing

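Over 23 alternatives, the 33 called results of the 9 genes' probe sets in the F test and 7 comparisons gave 721 values, of which 678 kept their call, 43 lost it and 0 reversed; 24 of the 33 kept it throughout. For the other pathway genes 1807 of 1904 values kept their call and 0 reversed. Leaving out single arrays moved the number of the 9 genes called to 4 to 7 for the F test (6 with all arrays), 2 to 4 for Myc primary against Shh tumours (3), 0 to 1 for Myc secondary against Myc primary tumours (0), 4 to 5 for Myc primary tumours against GFP-positive cells (5), 2 to 4 for Myc secondary tumours against them (2), 0 to 2 for Shh tumours against them (1), and 4 to 6 for tumours against sorted cells (6). With only the arrays compared, 3 genes were called for Shh tumours against GFP-positive cells and 1 for GFP-positive against GFP-negative cells. Without the 3 arrays that stood apart (Myc primary 3, GFP-negative 3 and Myc secondary 1), a choice made after seeing the data, the counts were 5 for Myc primary against Shh tumours, 4 for Myc secondary tumours against GFP-positive cells and 1 for GFP-positive against GFP-negative cells. Centring arrays on their median moved the median of all genes by 0.23 for GFP-positive against GFP-negative cells, 0.11 for Myc secondary against Myc primary tumours and -0.11 for Shh tumours against GFP-positive cells. No paired analysis was possible because the labels give no replicate numbers shared by groups. Levels near 4.77 cannot be told from background.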

Other observations

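Array Myc primary 2 stood apart within the p53 pathway. It had the highest Sesn2 of the 15 arrays (7.99) and the highest Cdkn1a (9.48), together with the highest Phlda3 (7.16) and Zmat3 (9.18). Not all targets were high in it. Of the 9 genes, it had the highest value of its group for 4 and the lowest for 1. The latter was Trp53inp1 (7.31), the lowest of the 15 arrays, while Mdm2 (8.33) and Eda2r (5.59) lay between the other Myc primary arrays. In the same array Cdkn2a was below background (4.34) and Myc, the gene introduced into these tumours, was the lowest of the 15 arrays (5.21, against 8.41 and 9.0 in Myc primary 1 and 3). The Myc probe set also read 8.15 to 9.13 in Shh tumours and 8.55 to 8.70 in GFP-negative cells. Whether it reads the introduced Myc is not stated. The array was singled out after its values were seen, and no test was made of it.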
